A study of Homo sapiens with 4 samples.

Results

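The zinc finger clusters of chromosome 19 were described here as every H3K4me3 peak that overlaps 1 of 4 intervals of the hg19 assembly, chosen by position alone. The intervals run from 19900000 to 24400000, from 36600000 to 38400000, from 44300000 to 45000000 and from 52300000 to 59128983, and are called 19p12, 19q13.12, 19q13.31 and 19q13.4 below, after the chromosome bands in which they mainly lie. They hold 631 of the 60265 peaks of the series, of which 284 of 36677 come from the control list and 347 of 23588 from the ARID1A knockout list. All other peaks of chromosome 19, 1271 control and 1229 knockout peaks, served as the comparison. A single member, a control peak at the end of the 19q13.12 interval, crosses a boundary.

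The peaks come from chromatin immunoprecipitation and sequencing of H3K4me3, the trimethylated lysine 4 of histone H3 that marks active promoters, in MDA-MB-231, a triple-negative breast cancer cell line. The series asks what becomes of the mark when ARID1A is lost, a subunit of SWI/SNF remodelling complexes that binds DNA. There was 1 control and 1 knockout immunoprecipitate (IP), each with 1 input library. The sources used here do not say whether the knockout line is 1 clone or how it was made. In 3 of the 4 libraries the cell line label ends in a number other than that of MDA-MB-231. The inputs carry IgG as their antibody label. The IP libraries held 27748061 control and 13391724 knockout tags (aligned reads). Of these, 62.1% and 99.4% lay in peaks, and control peaks were much wider than knockout peaks throughout the genome. Peaks covered 139198 kb in the control list and 10333 kb in the knockout list. The cause of this difference between the lists was not tested, and it limits every comparison of them below. With 1 library per genotype there is no replicate check and no test. Every interval given below covers counting error only (95%, exact Clopper-Pearson for shares, exact Poisson for counts, exact binomial for the ratio of a single pair). Intervals of medians are the exception: they come from the order of the values and rest on the spread between peaks. Peaks are not replicates, and genotype, culture and library cannot be told apart.

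KRAB zinc finger proteins are the largest family of transcription factors in mammals. An array of C2H2 zinc fingers binds DNA, often within a transposable element, and the KRAB domain recruits TRIM28 (KAP1) with the histone methyltransferase SETDB1, which lays down the repressive mark H3K9me3. The genes arose by tandem duplication and lie side by side on chromosome 19, where their bodies and last exons are known to carry H3K9me3 while the promoters of expressed members carry H3K4me3.

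The RefSeq gene order of GRCh38.p14 shows how dense these arrays are. Of 538 protein-coding genes whose symbol starts with ZNF or ZFP and a number, 255 (47.4%) are on chromosome 19. They make up 17.6% of its 1451 protein-coding genes, against 1.52% on all other chromosomes. On chromosome 19, 18 runs of 5 or more such neighbours, uninterrupted by another protein-coding gene, hold 200 of them. The longest run counts 27 genes, from ZNF737 to ZNF681, in 19p12. The run from ZNF565 to ZNF793 in 19q13.12 counts 24, and the run from ZNF283 to ZNF180 in 19q13.31 counts 20. The 19q13.4 arrays are broken up: between ZNF331 and ZNF524 lie 79 protein-coding genes, of which 2 are zinc finger genes, 10 are LILR and 7 are KIR genes, the leukocyte and killer-cell receptors. Other runs lie outside the 4 intervals, such as the 24 genes from ZNF627 to ZNF791 in 19p13.2, so the comparison peaks also include zinc finger promoters. These counts use symbols and not the KRAB domain. The peaks are in hg19 coordinates and no hg19 annotation was used, so no peak below is assigned to a gene and the label of the intervals was not checked peak by peak.

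The sequence of the promoters bears on where the mark can lie. H3K4me3 is deposited at CpG-rich promoters, by complexes that bind unmethylated CpG. In windows of 300 bases around the gene start (250 before and 50 after), 222 of the 255 zinc finger genes of chromosome 19 had a RefSeq sequence, with a median of 20 CG dinucleotides (quartiles 14 and 26). The 963 other genes of the chromosome had a median of 21 (quartiles 9 and 31), so the medians are close and the zinc finger promoters vary less. A ratio of observed to expected CG of 0.6 or more was reached by 173 of 222 zinc finger promoters (77.9%), by 576 of the 963 others (59.8%) and by 65.8% of all 15841 protein-coding promoters. The 250 bases before the start of 1 gene for each band are printed as examples, which were not chosen by a rule. The sequences run 5′ to 3′ in the direction of the gene, with every CG in capitals. They are ZNF91 (19p12, GRCh38.p14 chr19:23395472-23395721, minus strand), a repressor of SVA retrotransposons, ZNF566 (19q13.12, chr19:36489562-36489811, minus strand), ZNF45 (19q13.31, chr19:43935283-43935532, minus strand) and ZNF274 (19q13.4, chr19:58182811-58183060, plus strand), which is known to bring TRIM28 and SETDB1 to the ends of other zinc finger genes. They hold 7, 21, 16 and 14 CG, in that order. These counts are over 250 bases and do not compare directly with the medians over 300 bases. GRCh38 positions cannot be compared with the hg19 positions of the peaks.
ZNF91: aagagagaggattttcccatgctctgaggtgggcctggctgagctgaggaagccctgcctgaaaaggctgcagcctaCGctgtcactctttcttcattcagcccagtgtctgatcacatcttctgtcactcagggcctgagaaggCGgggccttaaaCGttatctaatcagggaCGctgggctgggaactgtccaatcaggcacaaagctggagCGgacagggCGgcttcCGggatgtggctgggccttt
ZNF566: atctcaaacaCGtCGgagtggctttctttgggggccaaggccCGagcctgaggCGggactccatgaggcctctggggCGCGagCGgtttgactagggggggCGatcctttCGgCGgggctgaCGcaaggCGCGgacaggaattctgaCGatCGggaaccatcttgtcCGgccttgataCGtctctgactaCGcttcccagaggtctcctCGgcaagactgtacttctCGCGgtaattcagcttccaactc
ZNF45: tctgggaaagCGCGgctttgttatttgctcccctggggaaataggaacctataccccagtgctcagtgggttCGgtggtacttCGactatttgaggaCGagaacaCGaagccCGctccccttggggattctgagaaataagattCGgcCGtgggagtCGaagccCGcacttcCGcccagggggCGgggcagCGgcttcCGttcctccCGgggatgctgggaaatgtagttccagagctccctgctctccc
ZNF274: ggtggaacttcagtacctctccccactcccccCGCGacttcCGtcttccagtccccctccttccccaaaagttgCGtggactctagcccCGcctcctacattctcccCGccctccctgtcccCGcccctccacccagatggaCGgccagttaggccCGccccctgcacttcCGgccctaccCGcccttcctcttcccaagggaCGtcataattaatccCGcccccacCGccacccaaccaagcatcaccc

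Peak density differed between the intervals and was lowest in 19p12. The control list had 10.4 peaks per Mb (7.67 to 13.9) in 19p12, 17.2 (11.7 to 24.4) in 19q13.12, 24.3 (14.1 to 38.9) in 19q13.31 and 27.7 (23.9 to 31.9) in 19q13.4. The rest of the chromosome had 28.1 (26.5 to 29.6), with the centromere counted in its length. The knockout list had 9.33 (6.73 to 12.6), 23.9 (17.3 to 32.2), 27.1 (16.3 to 42.4) and 35.6 (31.2 to 40.4) peaks per Mb in the same intervals, and 27.1 (25.6 to 28.7) in the rest. In the control list 19p12 and 19q13.12 lay below the rest, with 95% intervals that do not overlap, and in the knockout list 19p12 did. The knockout density of 19q13.4 lay above that of the rest by the same measure, and its control density did not. With its longest stretch without a control peak (3.87 Mb) left out, the rest had 30.7 control and 29.7 knockout peaks per Mb. No interval was computed for these values, so whether the knockout density of 19q13.4 stays apart from them was not tested. Over all 4 intervals the knockout density was 25.1 per Mb, under that of the rest, and 32.7 without 19p12, above it. Control peaks covered 4.10% of 19p12, 9.66% of 19q13.12, 12.4% of 19q13.31, 13.7% of 19q13.4 and 13.9% of the rest. Knockout peaks covered 0.380% of 19p12, between 1.18 and 1.70% of the 3 long-arm intervals, and 1.23% of the rest.

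**Figure D1:**
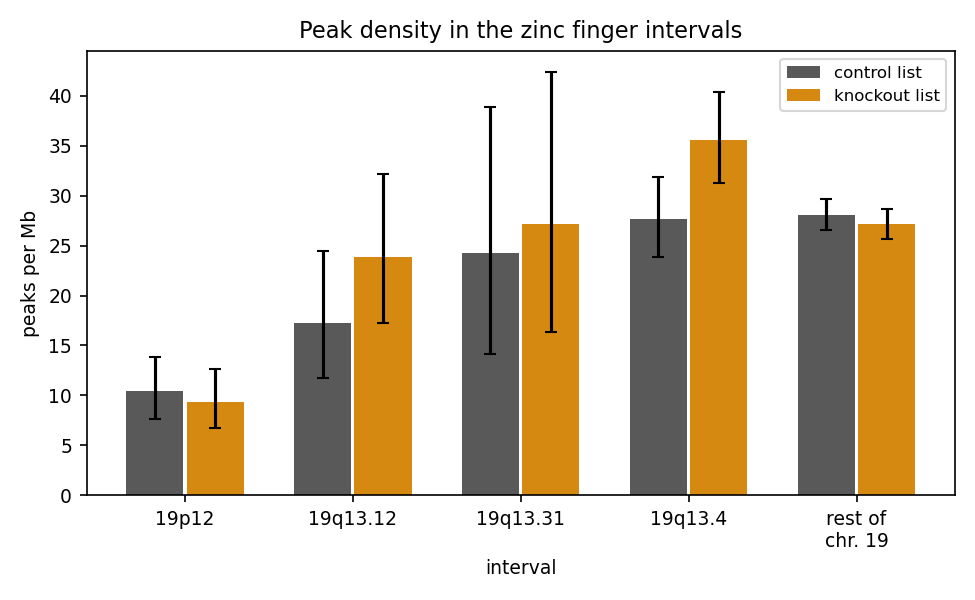
Peaks per Mb (vertical axis) in the 4 intervals and the rest of chromosome 19 (horizontal axis), for the control list (grey bars) and the knockout list (orange bars), with exact Poisson 95% intervals. Both bars of 19p12, at 10.4 and 9.33 peaks per Mb, stand below all others.

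The control peaks of the clusters were of a more even strength than those of the rest. Their median was 760 tags (quartiles 249.8 and 1036), against 426 (quartiles 119 and 1096) in the rest. Over the whole control list the median was 168 tags (quartiles 76 and 675), so chromosome 19 as a whole stood above the genome. The median was 705 tags in 19p12, 1244 in 19q13.12, 892 in 19q13.31 and 731 in 19q13.4. The third quartile was 4.15 times the first in the clusters and 9.21 times in the rest. It was 2.92 times in 19p12, 2.24 in 19q13.12 and 1.59 in 19q13.31, but 5.50 in 19q13.4. Between 500 and 1500 tags lay 155 of the 284 cluster peaks (54.6%, 48.6 to 60.5%) and 441 of the 1271 others (34.7%, 32.1 to 37.4%). Weak peaks under 100 tags made up 16.2% of the cluster peaks and 21.6% of the rest, and peaks over 1500 tags 10.2% and 12.5%. In 19p12 no control peak passed 1297 tags. The difference in the median was not kept among stronger peaks. Among peaks with a false discovery rate (FDR) of 1% or less, as the peak caller gave it, the medians were 860.5 tags in the clusters and 862 in the rest. This filter kept 228 of 284 cluster peaks (80.3%, 75.2 to 84.7%) and 871 of 1271 others (68.5%, 65.9 to 71.1%).

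**Figure D2:**
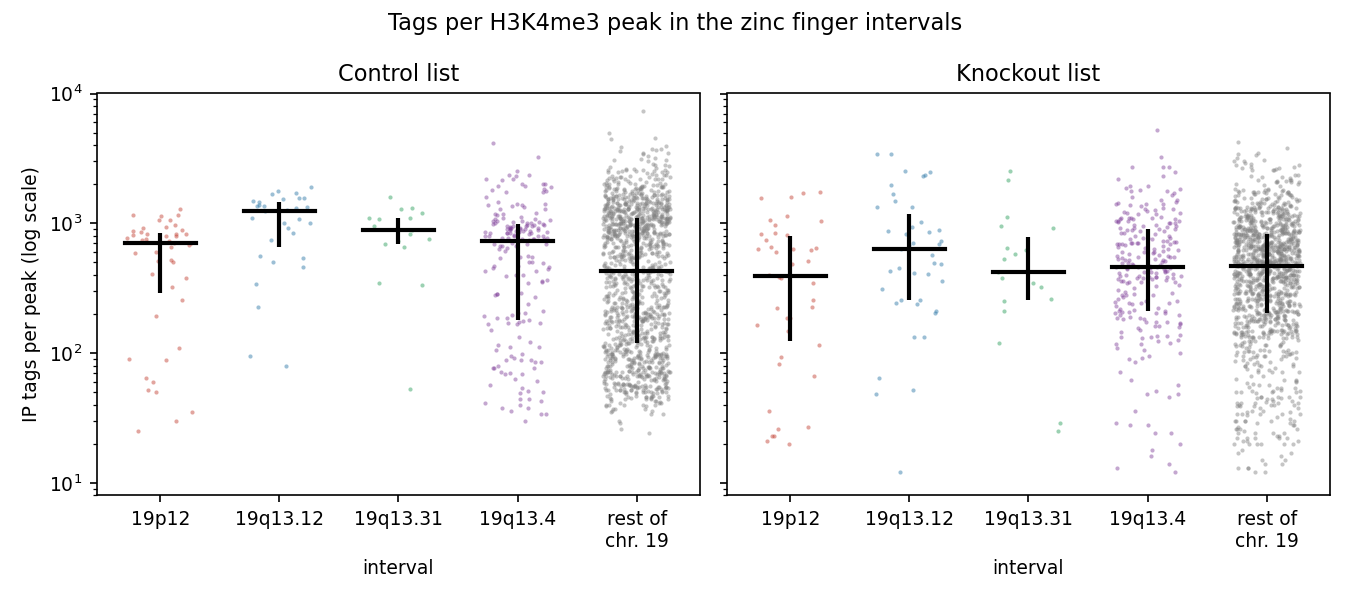
IP tags per peak (vertical axis, log scale) in each interval and in the rest of chromosome 19, for the control list (left) and the knockout list (right). Points are peaks, horizontal bars medians and vertical bars the quartiles. The control peaks of 19p12, 19q13.12 and 19q13.31 gather near medians of 705, 1244 and 892 tags, while those of the rest spread around 426. The knockout peaks show no such gathering.

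Cluster domains were of middling width for chromosome 19 and wider than the median of the genome. The median control width was 4497 bp (quartiles 3286 and 5828) in the clusters and 4259 bp (quartiles 2448 and 6462) in the rest. Over the genome it was 2968 bp, with 35.1% of peaks at 4 kb or more and 16.1% at 6 kb or more. A width of 4 kb or more was found for 174 cluster peaks (61.3%, 55.3 to 67.0%) and 672 others (52.9%, 50.1 to 55.6%). At 6 kb or more the order turned, with 61 cluster peaks (21.5%, 16.8 to 26.7%) and 376 others (29.6%, 27.1 to 32.2%). With an FDR of 1% or less the cluster median, 5042 bp, was below that of the rest, 5559 bp. All 13 cluster domains of 10 kb or more lay in 19q13.4, out of 189 control peaks there. The other 3 intervals had none among 47, 31 and 17 peaks (upper limits 7.55, 11.2 and 19.5%). The share in 19q13.4, 6.88% (3.71 to 11.5%), was near that of the rest, with 79 of 1271 (6.22%). Over the genome it was 2.94%. Per kb of peak the mean was 154 control tags in 19p12, 192 in 19q13.12, 172 in 19q13.31, 153 in 19q13.4 and 141 in the rest.

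**Figure D3:**
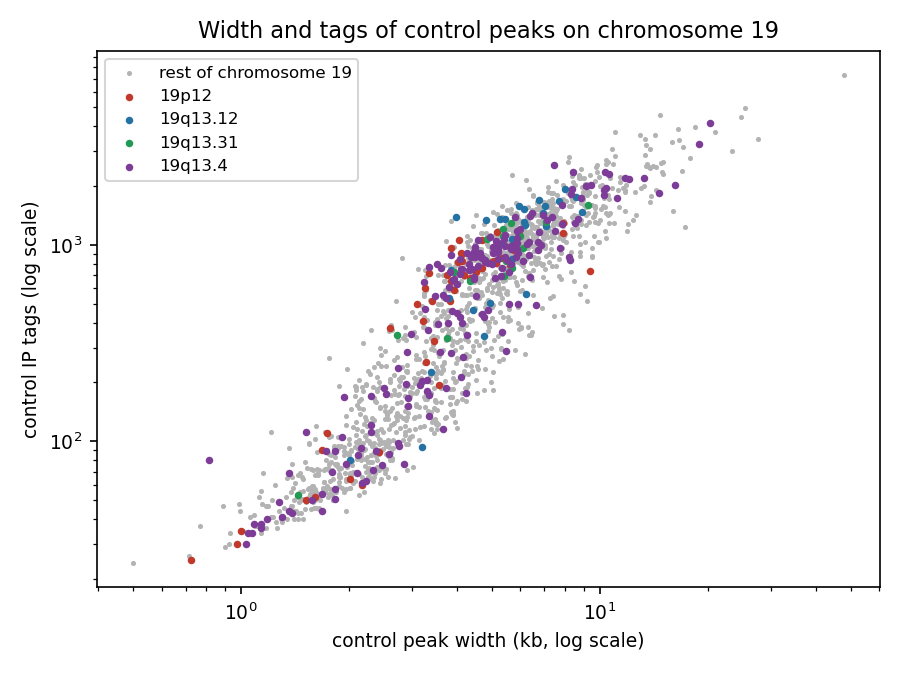
Tags (vertical axis, log scale) against width in kb (horizontal axis, log scale) of all control peaks on chromosome 19, with the 4 intervals in colour and the rest in grey. The coloured points are dense between 500 and 1500 tags, where 54.6% of the cluster peaks and 34.7% of the others lie, and the widest of them belong to 19q13.4.

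The strongest control peaks of each interval show the range. In 19p12 they held 1297 tags (1227 to 1370), from 20009008 to 20016886, and 1158 tags (1092 to 1227), from 24214416 to 24219562. In 19q13.12 they held 1917 tags, from 37956245 to 37964255, and 1758 tags, from 36702347 to 36710940. In 19q13.31 they held 1591 tags, from 44710541 to 44719822, and 1311 tags, from 44613724 to 44620771. Those of 19q13.4 were also the widest of the clusters, with 4160 tags over 20227 bp from 56143825 to 56164051 and 3260 tags over 18844 bp from 58889075 to 58907918. The third widest, from 58975683 to 58991827, held 2010 tags over 16145 bp. In 5 of the 8 strongest peaks the knockout list had 2 or 3 peaks, and in the other 3, the second strongest of 19p12, 19q13.12 and 19q13.31, it had none. For comparison, of all control peaks with 1086 tags or more, 27 of 63 in the clusters and 144 of 326 in the rest held 2 or more. None was held by 7 of the 63 and 27 of the 326.

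The spacing of the control peaks followed the same contrast between the intervals. Between neighbouring control summits with at least 500 tags the median distance was 71.7 kb in 19p12, 65.4 kb in 19q13.12, 23.8 kb in 19q13.31 and 31.7 kb in 19q13.4, against 37.3 kb in the rest. In 19q13.31 these distances were even, with quartiles of 20.1 and 33.3 kb. The longest distance within an interval, 1398 kb, was in 19p12. The 2 lists differed in places within 19p12. Between 21900000 and 22899999 the knockout list had 10 peaks against 3 in the control list, and 1 of the 10 met a control peak. Between 20900000 and 21899999 it had 6 against 16, and 5 of the 6 met one. Over all of 19p12, 22 of 42 knockout peaks met a control peak (52.4%). The steps were chosen after the data were examined.

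The knockout peaks of the clusters were as narrow as elsewhere. Their median width was 300 bp, the fragment length the peak caller used, and 174 of 347 (50.1%, 44.8 to 55.5%) had exactly this width, against 627 of 1229 (51.0%, 48.2 to 53.8%) in the rest. The share was 61.9% in 19p12, 44.2% in 19q13.12, 57.9% in 19q13.31 and 48.6% in 19q13.4, with intervals that overlap. The median was 474 knockout tags per peak in the clusters (quartiles 209 and 905) and 471 in the rest (quartiles 204 and 820). By interval it was 394.5 tags in 19p12, 631 in 19q13.12, 422 in 19q13.31 and 462 in 19q13.4. Strength varied alike in both regions, and the third quartile was 4.33 times the first in the clusters and 4.02 times in the rest. No cluster peak of the knockout list reached 4 kb, and 1 of 347 reached 2 kb. This widest one, from 56166413 to 56168830, spanned 2418 bp with 1846 tags. The next widest, from 54960383 to 54962075, held 530 tags, and the third, from 44597999 to 44599445, held 2162.

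Cluster control peaks held a knockout peak more often than other peaks of the chromosome. A shared base with a knockout peak was found for 171 of 284 cluster peaks (60.2%, 54.3 to 65.9%) and 608 of 1271 others (47.8%, 45.1 to 50.6%). Over the whole genome the share was 28.4%. The intervals differed among themselves, with 17 of 47 in 19p12 (36.2%, 22.7 to 51.5%), 23 of 31 in 19q13.12 (74.2%, 55.4 to 88.1%), 13 of 17 in 19q13.31 (76.5%, 50.1 to 93.2%) and 118 of 189 in 19q13.4 (62.4%, 55.1 to 69.4%). Without 19p12 the cluster share was 154 of 237 (65.0%, 58.5 to 71.0%). Clusters and rest differed by 12.4 percentage points (5.96 to 18.5, Newcombe interval), and by 7.95 (-2.44 to 17.9) without 19q13.4, an interval that includes 0.

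Because the share rises with strength and the clusters have fewer weak peaks, it was also read within 4 equal classes of control tags set over chromosome 19. In the weakest class, of 24 to 129 tags, it was 7.69% (2.14 to 18.5%) in the clusters and 7.12% (4.62 to 10.4%) in the rest. From 129 to 515 tags it was 38.5% (25.3 to 53.0%) and 30.9% (26.0 to 36.1%). From 516 to 1081 tags, the class that holds 117 of the 284 cluster peaks, it was 77.8% (69.2 to 84.9%) and 66.8% (60.8 to 72.4%). In the strongest class it was 88.9% (78.4 to 95.4%) and 91.7% (88.2 to 94.5%). The intervals of clusters and rest overlap in all 4 classes. With the class shares of the rest, 54.8% of the cluster peaks would hold a knockout peak, between the 47.8% of the rest and the 60.2% observed. Among all control peaks of at least 500 tags the shares were close, with 150 of 184 in the clusters (81.5%, 75.1 to 86.9%) and 482 of 600 in the rest (80.3%, 76.9 to 83.4%). Over the genome, 69.1% of the 11077 peaks of this strength held one.

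The cluster value is an average of unlike intervals. In the class of 516 to 1081 tags, 65 of 75 control peaks in 19q13.4 held a knockout peak (86.7%, 76.8 to 93.4%), and 14 of 26 in 19p12 did (53.8%, 33.4 to 73.4%). Among peaks of at least 500 tags the share was 17 of 32 in 19p12 (53.1%, 34.7 to 70.9%), below the 133 of 152 in the 3 long-arm intervals (87.5%, 81.2 to 92.3%) and the 80.3% of the rest. The 95% interval of 19p12 includes the genome's 69.1%. The 32 strong peaks of 19p12 had a median of 809 tags, against 937 in 19q13.4 and 1117 in the rest. Their median width was 4423 bp, against 5546 bp in 19q13.4 and 6537 bp in the rest. The part of tags and width within this class in the difference was not tested. Tandem copies and repeats are frequent in these arrays, and the sources used here do not say how reads that match several copies were placed, so their part in the values was not tested.

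**Figure D4:**
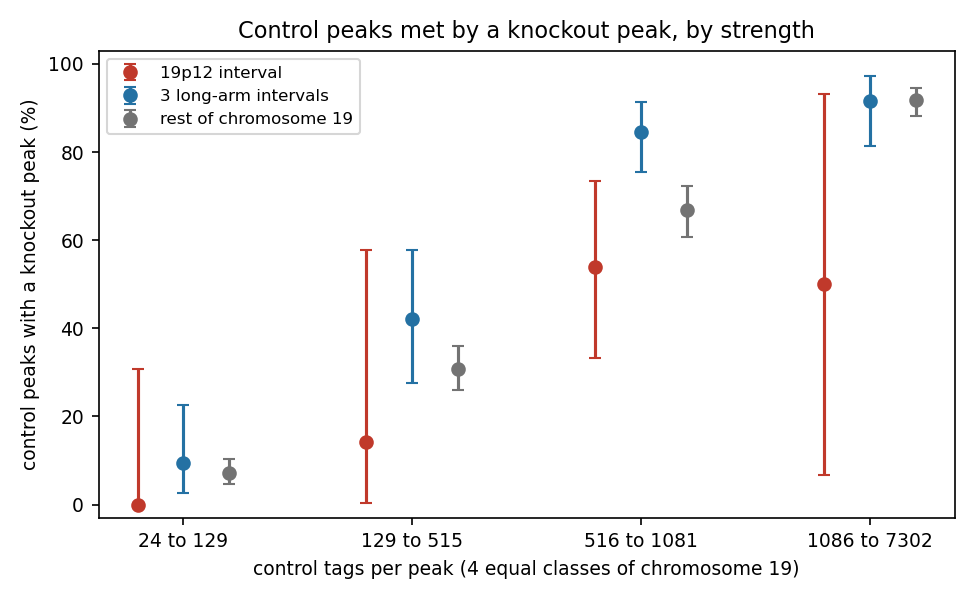
Percent of control peaks that share a base with a knockout peak (vertical axis) in 4 equal classes of control tags (horizontal axis), for 19p12 (red), the 3 long-arm intervals together (blue) and the rest of chromosome 19 (grey), with exact 95% intervals. From 516 to 1081 tags the share is 53.8% in 19p12, 84.6% in the long-arm intervals and 66.8% in the rest.

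In steps of 1 Mb the share varied within the intervals too. These steps, and the class of at least 500 tags, were chosen after the data were examined. In 19q13.4, all 10 control peaks of at least 500 tags from 54300000 to 55299999 and all 17 from 55300000 to 56299999 held a knockout peak (lower limits 69.2 and 80.5%). In these 2 steps the median control peak was weaker than elsewhere in the interval, at 194 and 445 tags. From 52300000 to 53299999 it was 17 of 20, and from 57300000 to 58299999 again 17 of 20. The lowest shares were 13 of 16 from 53300000 to 54299999 and 5 of 7 from 56300000 to 57299999. Over the whole of 19q13.4 it was 99 of 112 (88.4%). In the last step of the chromosome arm, from 58300000, it was 20 of 22 and the median control peak was the strongest of 19q13.4, at 1040 tags. In 19p12 the share of such peaks fell between 0 of 2 in the last step, from 23900000 to 24400000, and 4 of 6 in the step before it.

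Several cluster domains held more than 1 knockout peak. This was so for 50 of 284 control peaks (17.6%) and for 200 of 1271 in the rest (15.7%), against 7.80% over the genome. Of the 50, 36 were in 19q13.4, 8 in 19q13.12, 5 in 19p12 and 1 in 19q13.31. The highest number was 5, in the domain from 54702056 to 54714132, where 2150 control tags over 12077 bp stood beside knockout peaks of 1589, 873, 553, 1366 and 18 tags. Its neighbour from 54689656 to 54698037, with 2353 control tags, held 4 knockout peaks of 137, 792, 679 and 461 tags. The domain from 54367616 to 54377882, with 1911 control tags, held 4 of 423, 202, 459 and 371 tags. All 3 lie in 19q13.4.

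Within the control domains of the clusters, knockout summits lay about as far from those of the control as in the genome as a whole. The median distance was 497 bp (quartiles 143 and 1119) over 244 overlaps in the clusters and 689 bp (quartiles 187 and 1586) over 897 in the rest. Summits lay within 500 bp of each other in 122 of 244 overlaps (50.0%, 43.6 to 56.4%) and in 383 of 897 (42.7%, 39.4 to 46.0%). Over the 14240 overlaps of the genome the median distance was 568 bp and 46.0% were within 500 bp, inside the interval of the clusters. As a share of the control width the median distance was 8.61% and 10.7%. Knockout summits fell equally on both sides of the control summit, 122 towards lower and 122 towards higher coordinates. The split was alike in the rest, with 447 and 448, and 51.1% lay towards lower coordinates over the genome.

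Of the 184 cluster domains with at least 500 tags, 34 had no knockout peak, against 3425 of 11077 over the genome. They were 15 of 32 in 19p12, 4 of 26 in 19q13.12, 2 of 14 in 19q13.31 and 13 of 112 in 19q13.4. The strongest was the 19q13.12 domain from 36702347 to 36710940, with 1758 tags (1677 to 1842), 70504 bp from the nearest knockout peak. It was followed by a 19q13.4 domain from 58737239 to 58744331 with 1338 tags, 3642 bp from a knockout peak, and by the 19q13.31 domain from 44613724 to 44620771 with 1311 tags, 4797 bp from one. Further domains in 19q13.4 held 1199 tags, from 52528007 to 52533977, and 1179 tags, from 57700447 to 57706299. The second strongest control peak of 19p12, with 1158 tags, lay 218936 bp from the nearest knockout peak. The median cluster control peak without a knockout peak held 180 tags in 3147 bp, and the median one with a knockout peak 916 tags in 5320 bp. In 19p12 the median of those without was 461 tags, and in 19q13.4 it was 134.

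Of the knockout peaks in the clusters, 243 of 347 (70.0%, 64.9 to 74.8%) met a control peak, against 897 of 1229 in the rest (73.0%, 70.4 to 75.5%) and 60.3% over the genome. The share was 22 of 42 in 19p12 (52.4%, 36.4 to 68.0%), 35 of 43 in 19q13.12 (81.4%, 66.6 to 91.6%), 14 of 19 in 19q13.31 (73.7%, 48.8 to 90.9%) and 172 of 243 in 19q13.4 (70.8%, 64.6 to 76.4%). Outside control domains the 104 cluster peaks held 379 tags at the median (quartiles 166.8 and 703.2). Inside, the 243 held 530 (quartiles 248.5 and 1002). Those outside were a median of 7.22 kb from the nearest control peak, against 6.75 kb in the rest and 18.3 kb over the genome. In 19p12, where control density was lowest, the median was 50.3 kb. Exactly 300 bp wide were 68 of the 104 outside (65.4%, 55.4 to 74.4%) and 106 of the 243 inside (43.6%, 37.3 to 50.1%), much as in the rest, with 69.0 and 44.4%.

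The strongest knockout peaks of the clusters lay both inside and outside control domains, and 70.0% of all cluster knockout peaks met a control peak. The strongest of all, in 19q13.4 from 58330935 to 58332153, held 5201 tags (5061 to 5344), in a control domain of 2191 tags from 58322498 to 58335728. The second of 19q13.4, from 53934726 to 53935616 with 3232 tags, lay in a domain of 911 tags. In 19q13.12 the strongest were 3447 tags from 37960473 to 37961068, in the strongest control domain of that interval, and 3400 tags from 38145250 to 38146650. In 19p12 a peak from 20278731 to 20279360 held 1753 tags inside a control domain of 821 tags, and one from 22753777 to 22754245 held 1712 tags at 675151 bp from any control peak. In 19q13.31 a peak of 460 bp from 44839209 to 44839668 held 2519 tags (2422 to 2619) at 18498 bp from any control peak, the most of any cluster peak outside control domains. Others of this kind were in 19q13.4 from 55697230 to 55697690 with 1950 tags, 1226 bp from a control peak, from 55857033 to 55857505 with 1798 tags, 2240 bp from one, and from 52624275 to 52624574 with 1398 tags, 15486 bp from one.

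Where exactly 1 knockout peak met exactly 1 control peak, the tag ratio of the clusters was near that of the rest. The ratio was log2 of knockout over control tags with 1 tag added to each, centred on the median of all 7552 such pairs of the genome, since depth and enrichment differ between the libraries. Over the 120 cluster pairs its median was -0.06 (quartiles -1.30 and 1.03), and over the 408 pairs of the rest -0.15 (quartiles -1.24 and 1.00). By interval the median was -0.08 in 19p12 (12 pairs), 0.06 in 19q13.12 (15 pairs), -0.54 in 19q13.31 (12 pairs) and 0.05 in 19q13.4 (81 pairs). The 95% interval of the cluster median, from the order of the 120 values, was -0.51 to 0.34 and includes the median of the rest. It rests on the spread between pairs and not on counting error. Pairs are not replicates, so it is no test of clusters against the rest. Single pairs varied with an SD of 1.93 in the clusters and 1.85 in the rest. The clusters lay 0.09 above the rest, and this difference moved with the pairs used. It was 0.20 with all knockout tags of a control peak summed, 0.33 at an FDR of 1% or less and 0.42 without the 300 bp knockout peaks, where the cluster medians were 0.17, 0.20 and 0.26. With tags divided by peak width it turned to -0.20. A ratio at least 2-fold above the median was found for 33 of 120 (27.5%, 19.7 to 36.4%), against 28.7% of all pairs. A ratio at least 2-fold below was found for 34 (28.3%, 20.5 to 37.3%), against 28.9% of all pairs. Both shares are near those of the genome. Tags of the paired peaks ranked only weakly together, with Spearman's rho of 0.11 over the 120 cluster pairs and 0.15 over the 408 others, a description across regions that share 2 libraries.

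**Figure D5:**
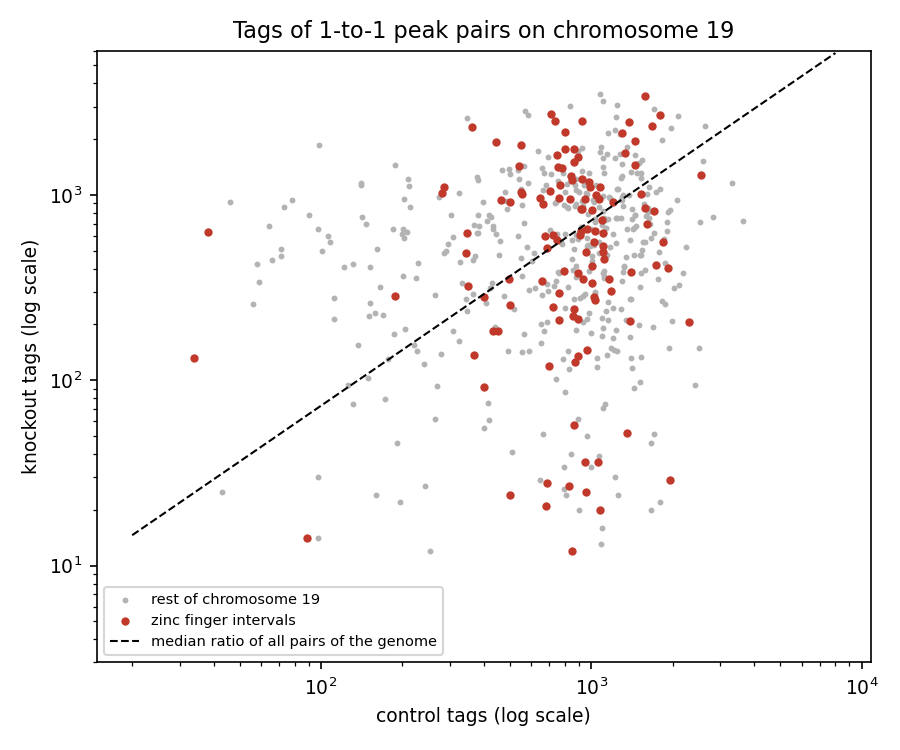
Knockout tags (vertical axis, log scale) against control tags (horizontal axis, log scale) of 1-to-1 peak pairs on chromosome 19, with cluster pairs in red and the others in grey. The dashed line is the median ratio of all pairs of the genome. The 120 cluster pairs lie on both sides of it, 33 at least 2-fold above and 34 at least 2-fold below.

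The extreme pairs of the clusters were at single peaks. Intervals of their ratios are binomial limits of the knockout tags given both counts, centred alike but without the added tag. The highest ratio, 4.48 on the centred log2 scale (4.04 to 5.03), was in 19q13.4 at a control peak from 56577583 to 56578664, with 38 control tags and 633 knockout tags in 300 bp. The FDR of this control peak was 38.0%, so it would not pass the 1% limit used above. The next, 3.13 (2.97 to 3.30), paired 361 control tags from 56095715 to 56101034 with 2313 knockout tags. The third, 2.57 (2.43 to 2.73), paired 445 control tags from 56134060 to 56138761 with 1936 knockout tags. All 3 lie within 0.5 Mb of each other. The lowest, -5.57 (-6.64 to -4.87), was in 19q13.12 from 36866655 to 36872324, with 846 control tags and 12 knockout tags. A 19q13.4 domain from 58959941 to 58970340, with 1952 control and 29 knockout tags, had -5.57 (-6.20 to -5.09). Another, from 53603732 to 53609137, with 1073 control and 20 knockout tags, had -5.22 (-6.01 to -4.66). The knockout peaks of these low pairs spanned 300, 777 and 300 bp, in control domains of 5670, 10400 and 5406 bp. No peak of the knockout list held fewer than 12 tags, so these ratios rest on knockout counts near its lowest. The control peak that crosses the boundary of 19q13.12, from 38395020 to 38401941, had 1454 control and 1955 knockout tags and a ratio of 0.88 (0.78 to 0.98).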

How the data were processed

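Each genotype has 1 deposited peak list, made by the authors from 1 IP and 1 input library without pooling. Per the submitters' processing notes, Bowtie2 2.2.4, MACS 1.4.3 and hg19 were used. Per the file headers, adapters were trimmed with cutadapt, MACS was run with a p cutoff of 0.0001, a fragment length of 300 bp and a model fold range of 10 to 30, and, of IP and input, the library with more tags was scaled down. The sources used here do not say whether duplicate tags or tags with several placements were removed.

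The deposited tag counts are raw IP tags per peak. The deposited score (a transformed MACS p-value whose column name was lost), the fold enrichment (a ratio to local background) and the FDR in percent are the authors' values and were used only to filter peaks. Depth was 27748061 control and 13391724 knockout IP tags. In the knockout list's header the library is called K6, a name absent from the labels used here, so the name of the list alone ties it to the knockout.

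Peaks were assigned by position and overlapped at 1 bp or more with pandas 2.3.3, numpy 2.4.6 and scipy 1.17.1 under Python 3.11.15. Overlap counts equalled those of bedtools 2.31.1, and the steps were checked on simulated data. Peaks named in the text are the 2 strongest of each list and interval, the 5 strongest without a peak in the other list, the 3 widest, the 3 domains with most knockout peaks, the 3 highest and lowest ratios among pairs whose summed tags reach 50 and whose interval excludes 0, and peaks across a boundary. Promoter sequences came from RefSeq (GRCh38.p14), matched by gene ID. The members, lists and comparisons were chosen with earlier results of these data known.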

Additional observations from a re-analysis of the deposited data

How the results depend on the processing

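Each alternative changed 1 choice, and shares and medians were taken as kept within their 95% interval, densities within 1.5 times. In the clusters 60.2% of control peaks held a knockout peak. This moved to 67.6% at a MACS p no higher than 1e-10, to 71.5% at an FDR no higher than 1%, to 70.2% when both lists were cut to the same length and to 39.1% when knockout peaks of 300 bp were left out. It stayed above the comparison peaks in all alternatives of this section, by 7.06 (without the 300 bp peaks) to 17.1 (without 19p12) percentage points against the rest of chromosome 19, and by 32.7 against all other chromosomes. This did not hold at every strength. Clusters and rest had 81.5 and 80.3% among control peaks of at least 500 tags, and 88.9 and 91.7% in the strongest tag class. Of the alternatives on chromosome 19, the one without 19q13.4 (7.95 points, -2.44 to 17.9) had an interval that includes 0. Leaving out the 300 bp peaks moved the share of knockout peaks that met a control peak from 70.0 to 79.2%. It also gave 12.5 knockout peaks per Mb, a median width of 487 bp and a median of 792 tags. Without 19q13.4 the cluster density was 14.9 knockout and 13.6 control peaks per Mb. With an FDR of 1% or less the control medians moved to 5042 bp and 860.5 tags, and their ratios to the rest turned from 1.06 and 1.78 to 0.91 and 1.00 (0.998). Against all other chromosomes the ratios were 1.54 for width and 4.69 for tags (760 against 162). The ratio of knockout density to the rest turned to 1.21 without 19p12, and that of median knockout tags from 1.01 to 0.98 without 19q13.12. The median ratio of shared peaks was 0.54 after division by library totals, where no centring sets its level. Other than where a filter removes weak peaks by construction, the cause was not tested. The promoter comparison in hg19 was not run, since no hg19 annotation was used. No paired analysis was possible because each genotype has 1 IP library. The small numbers of control peaks in 19p12, 19q13.12 and 19q13.31, 47, 31 and 17, limit the precision of their shares.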
